A study of Mus musculus with 8 samples.

Results

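The enzymes that write, copy and remove DNA methylation were examined at the level of RNA and of H3K27me3 (trimethylated lysine 27 of histone H3) in mouse embryonic stem cells (mESCs) exposed to morphine. The set comprised 9 genes, namely Dnmt1, Uhrf1, Dnmt3a, Dnmt3b, Dnmt3l, Tet1, Tet2, Tet3 and Tdg. A locus of the RNA-Seq count table was taken as a member when its most frequent gene name was one of these, which gave 10 of the 44396 loci in the table, because 2 loci carry the name Tdg. All 10 were among the 20350 loci with enough counts to be tested. The cells were a single Oct4-GFP mESC line grown without feeders on gelatine in LIF + 2i medium, and both conditions shared this background. Control cells (C) received NaCl and treated cells (M) received 10 µM morphine, each for 24 h. Of the 8 libraries, 4 were RNA-Seq and 4 were H3K27me3 ChIP-Seq, with 2 replicates per condition in each assay. The sources used here call the replicates duplicate samples or biological replicates and do not say that each came from a separate culture, so the p-values measure only the spread between these libraries.

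DNA methylation in mammals sits mainly on cytosines of CpG dinucleotides. DNMT3A and DNMT3B place new marks, with DNMT3L as a catalytically inactive partner, and UHRF1 brings DNMT1 to newly copied DNA so that the pattern is passed on to both strands. The TET enzymes oxidise 5-methylcytosine, and TDG excises the most oxidised products so that repair restores an unmodified cytosine. Naive mESCs held in 2i medium are known for low DNA methylation and abundant TET1, and H3K27me3 is a repressive mark laid down by Polycomb Repressive Complex 2, often at CpG-rich promoters.

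Library totals ran from 25081266 to 29531096 counts. All 10 naive mESC markers on the list were tested and none passed an FDR (false discovery rate, Benjamini-Hochberg) of 0.05 in edgeR's quasi-likelihood test. Of these, 4 had an unadjusted p under 0.05, and DESeq2 called 3 (Pou5f1 and Utf1 higher, Tfcp2l1 lower). In the quasi-likelihood test the log2 fold change of Pou5f1 was 0.23 ± 0.05 (SE, adjusted p = 0.0525) and that of Utf1 0.19 ± 0.05 (adjusted p = 0.0775). Tfcp2l1 was at -0.19 ± 0.06 (adjusted p = 0.0880) and Nanog at -0.12 ± 0.04 (adjusted p = 0.158). Pou5f1 was also called higher by edgeR's exact and likelihood ratio tests. The mean control levels of the 10 markers ran from 184 to 1230 CPM (counts scaled to the size of the library). Of the fibroblast markers, which would report feeder cells, 3 of 6 stayed at or under 3 counts in every library and the 6 together summed to between 10.3 and 12.5 CPM. None of the marker genes for epiblast, endoderm, mesoderm, neural, trophoblast or 2-cell-like states passed the FDR in the quasi-likelihood test, DESeq2 gave many of them no adjusted p and called none, and 1, Pou3f1 of the epiblast list, had an unadjusted p under 0.05. Pou3f1 (27 to 41 counts) was at 0.61 ± 0.26 (SE, adjusted p = 0.211), Fgf5 (7 to 23 counts) at 0.76 ± 0.44 (adjusted p = 0.359) and Otx2 at -0.14 ± 0.08 (adjusted p = 0.344). Their summed CPM in C against M was 20.8 to 22.5 against 20.3 to 20.6 for the epiblast list (mostly Otx2), 19.0 to 20.0 against 20.2 to 22.1 for endoderm, and 4.01 to 5.42 against 4.33 to 5.26 for mesoderm. It was 148 to 151 against 155 to 162 for the neural list, 19.2 to 21.9 against 19.9 to 21.3 for trophoblast, and 6.99 to 7.75 against 6.52 to 7.39 for the 2-cell-like list. Across all tested loci the log2 fold change rose with the GC content of the exons (Spearman's rho of 0.485 over loci, which are not independent replicates), and without replicate 1 of M the number of loci called fell from 309 to 13. Both facts touch the TET results given later. Small loci inside Dnmt1 (Mir7081), Dnmt3a (Dnmt3aos) and Tet3 (Mir6374 and B230319C09Rik) held at most 20 counts per library.

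The RNA levels of the members spread widely, with Uhrf1 highest and Tet3 lowest. On a scale that divides CPM by the summed exon length of the locus in kb, the mean control level was 207 CPM per kb for Uhrf1, 89.9 for Dnmt3l, 82.0 for Dnmt1, 44.9 for Tet1 and 19.06 for Tet2. It was 16.2 CPM per kb for Dnmt3b, 15.2 for Dnmt3a, 9.24 for the smaller Tdg locus, 5.28 for the Tdg gene and 1.64 for Tet3. The lowest of the 4 libraries for one gene lay above the highest for the next at every step of this order apart from Tet2 and Dnmt3b, whose values overlapped (lowest Tet2 15.9, highest Dnmt3b 16.8 CPM per kb). Uhrf1 stood above 98.8% of tested loci on this scale and Tet3 above 36.8%. The exon length is that of the assembled locus, so a gene with many assembled isoforms, such as Tet1 at 15081 bp, is divided by more than the length of any single transcript.

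**Figure D1:**
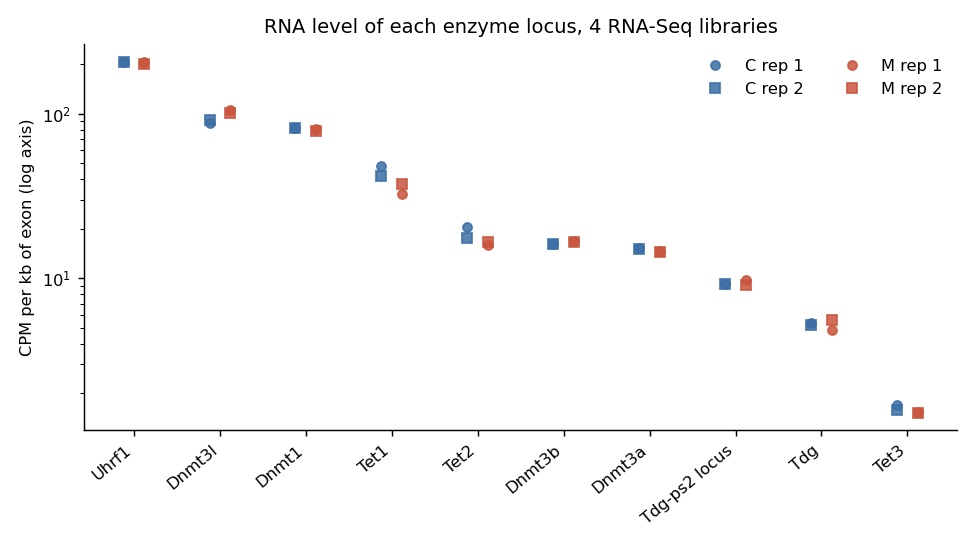
RNA level of the 10 loci as CPM per kb of exon on a log axis, ordered by the control mean, with circles and squares for replicates 1 and 2 of C and M. The levels ran from 207 for Uhrf1 down to 1.64 for Tet3 in C, and Tet2 and Dnmt3b were the only neighbours whose libraries overlapped.

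Within the TET family, Tet1 made up 68.4% and 68.4% of the summed CPM per kb in C and 65.1% and 67.5% in M. Tet2 held 29.2% and 29.0% in C and 31.8% and 29.7% in M, and Tet3 stayed between 2.40% and 3.10% in all 4 libraries. Tet1 was thus the main TET transcript in each library, with a slightly smaller share in both M libraries. Within the DNMT family, Dnmt1 held 40.8% and 39.9% in C and 37.1% and 37.4% in M, whereas Dnmt3l held 43.6% and 44.8% in C and 48.4% and 47.9% in M. Dnmt3a and Dnmt3b were close to each other, at 6.77% to 7.64% and 7.74% to 7.99%.

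The comparison of M with C asked whether 24 h of morphine altered the RNA of these enzymes. A single member, Tet1, passed the FDR of 0.05 in edgeR's quasi-likelihood test over all tested loci, and it fell. Of all tested loci 1.52% passed, 0.904% lower and 0.614% higher in M, so 1 of 10 members is a count too small to set apart from this background. The M libraries lay below both C libraries in 5 members, against 26.8% of all tested loci, and above both in 2 members, against 26.0%. In the other 3 members the libraries overlapped. The median log2 fold change was -0.03 over the members and 0.0013 over all tested loci, and 3 members had an unadjusted p under 0.05, as had 4174 of the 20350 tested loci.

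**Figure D2:**
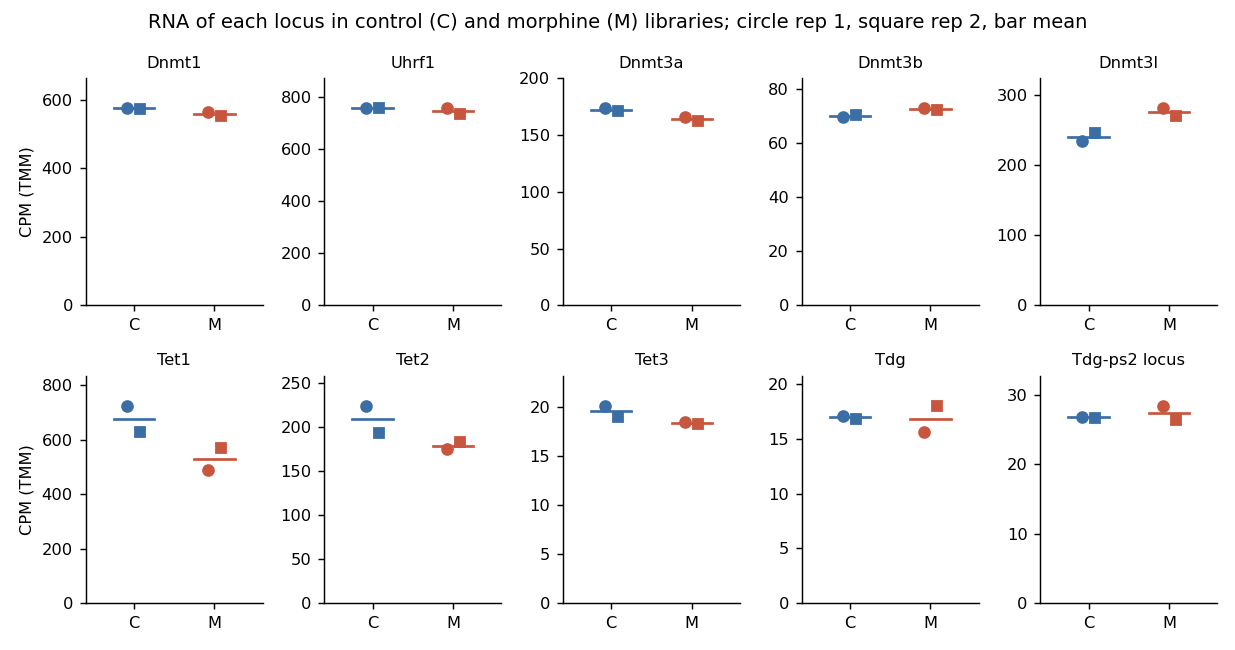
CPM of each locus in the control (C) and morphine (M) RNA-Seq libraries, each panel with its own axis from 0, circles for replicate 1, squares for replicate 2 and a bar at the mean. Tet1 fell from a mean of 678 to 529 CPM, while Dnmt3l lay higher in both M libraries and Dnmt1 and Uhrf1 had ratios of the means of 0.972 and 0.985.

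Dnmt1 (chr9:20907206-20959888 on mm10, minus strand), the methyltransferase that copies the pattern at replication, had 15812 and 16896 counts in C and 14272 and 15570 in M. This corresponded to 576 and 574 CPM in C and 564 and 553 CPM in M. Both M libraries lay below C, with a ratio of the means of 0.972, and the log2 fold change of -0.04 was as small as its SE of 0.04 (adjusted p = 0.617, edgeR's quasi-likelihood test). Uhrf1 (chr17:56303337-56323486, plus strand), the reader of hemimethylated DNA that recruits DNMT1, had 759 and 757 CPM in C and 757 and 736 CPM in M. Its libraries overlapped and its log2 fold change was -0.02 ± 0.04 (SE, adjusted p = 0.813). The ratio of Uhrf1 to Dnmt1 in CPM per kb was 2.53 in both C libraries and 2.57 and 2.55 in M. With trends in exon length and GC content removed, a fit described with the TET genes, Dnmt1 was at -0.09 ± 0.03 (SE, unadjusted p = 0.00847, adjusted p = 0.215) and Uhrf1 at -0.09 ± 0.03 (SE, unadjusted p = 0.0059, adjusted p = 0.187). Neither gene passed the FDR in either fit, and both values were farther from 0 in the second.

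The de novo enzymes moved little. Dnmt3a (chr12:3806523-3914443, plus strand), whose product methylates previously unmarked CpGs, had 174 and 171 CPM in C and 166 and 163 CPM in M. Both M libraries lay below C, with a log2 fold change of -0.07 ± 0.05 (SE) and an adjusted p of 0.429. Dnmt3b (chr2:153649449-153687730, plus strand), its close relative, had 69.6 and 70.3 CPM in C and 72.8 and 72.0 CPM in M. Here both M libraries lay above C, with a log2 fold change of 0.05 ± 0.05 (SE) and an adjusted p of 0.644. The ratio of Dnmt3a to Dnmt3b in CPM per kb was 0.955 and 0.932 in C and 0.871 and 0.864 in M, a description with no test.

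Dnmt3l (chr10:78042287-78063622, plus strand), the partner that stimulates DNMT3A and DNMT3B, had the largest positive change of the set. It had 6441 and 7226 counts in C and 7111 and 7613 in M, equal to 234 and 245 CPM in C and 281 and 270 CPM in M. Both M libraries lay above both C libraries, and the means were 240 ± 7.79 CPM and 276 ± 7.56 CPM (SD, n = 2 libraries each). The log2 fold change of 0.20 ± 0.05 (SE) just missed the FDR (adjusted p = 0.0562, edgeR's quasi-likelihood test). Over the alternatives its adjusted p ran from 0.00533 to 0.438, and DESeq2 called it at 0.00854. The locus overlaps Aire on the opposite strand, which had 47 to 79 counts per library. The ratio of Dnmt3l to Dnmt3a in CPM per kb was 5.71 and 6.08 in C and 7.18 and 7.04 in M.

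Tet1 and Tet2 had the lowest log2 fold changes of the set when no GC trend was removed. Tet1 (chr10:62804570-62908996, minus strand), the predominant 5-methylcytosine dioxygenase of naive mESCs, had 19927 and 18554 counts in C and 12386 and 16011 in M. This corresponded to 725 and 630 CPM in C and 490 and 569 CPM in M, so that both M libraries lay below both C libraries while the replicates of each condition were also well apart. The means were 678 ± 67.2 CPM and 529 ± 55.9 CPM (SD, n = 2 libraries each), so the mean fell by 21.9%. The log2 fold change was -0.36 ± 0.07 (SE) with an adjusted p of 0.0423 in edgeR's quasi-likelihood test, and 7.57% of tested loci fell further. DESeq2 gave the same size of change with an adjusted p of 0.0941, and over all alternatives the adjusted p ran from 1.87e-10 to 0.405. The highest of these came without replicate 1 of M, where the log2 fold change was -0.25 and the call was lost.

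Tet2 (chr3:133463677-133544390, minus strand), the family member without a CpG-binding CXXC domain of its own, had 6153 and 5695 counts in C and 4409 and 5130 in M. Its CPM were 224 and 193 in C and 174 and 182 in M, again with both M libraries below both C libraries. The log2 fold change was -0.23 ± 0.06 (SE), with an adjusted p of 0.0861 in edgeR's quasi-likelihood test. DESeq2 called it at 0.0246, and the alternatives ran from 0.000164 to 0.519. Without replicate 1 of C the log2 fold change was -0.12 (adjusted p = 0.463). Tet3 (chr6:83362373-83456392, minus strand), the form known from the oocyte and zygote, was weak, with 554 and 559 counts in C and 467 and 514 in M. Its CPM of 20.2 and 19.0 in C and 18.5 and 18.3 in M gave a log2 fold change of -0.09 ± 0.08 (SE, adjusted p = 0.537). The ratio of Tet1 to Dnmt1 in CPM per kb was 0.585 and 0.510 in C and 0.403 and 0.478 in M. The ratio of Tet1 to Tet2 was 2.35 and 2.37 in C and 2.04 and 2.27 in M, a description with no test.

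Tet1 and Tet2 also differed from the other members in base composition. Their exons had a GC content of 44.0% and 44.9%, whereas the other 8 loci lay between 48.3% and 53.9%, and the median of tested loci was 49.7%. The 2906 tested loci with a GC content from 43% to 46% had a median log2 fold change of -0.09, and the 3076 loci from 52% to 55% had a median of 0.07; these ranges were set around the members' own values. The values of Tet1 and Tet2 were lower than the first of these medians. That alone does not set them apart from other loci of like GC content, whose spread was not examined. With a smooth trend of the counts with exon length removed, the log2 fold change of Tet1 was -0.24 ± 0.06 (SE, adjusted p = 0.0556). With trends in both length and GC content removed it was -0.21 ± 0.05 (adjusted p = 0.106), and no member was called in either fit. Tet2 went from -0.23 to -0.10 ± 0.05 (adjusted p = 0.425) and Dnmt3l from 0.20 to 0.12 ± 0.03 (adjusted p = 0.148) in the fit with both trends removed. In that fit Tet3, at -0.12 ± 0.07 (adjusted p = 0.498), lay below Tet2.

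**Figure D3:**
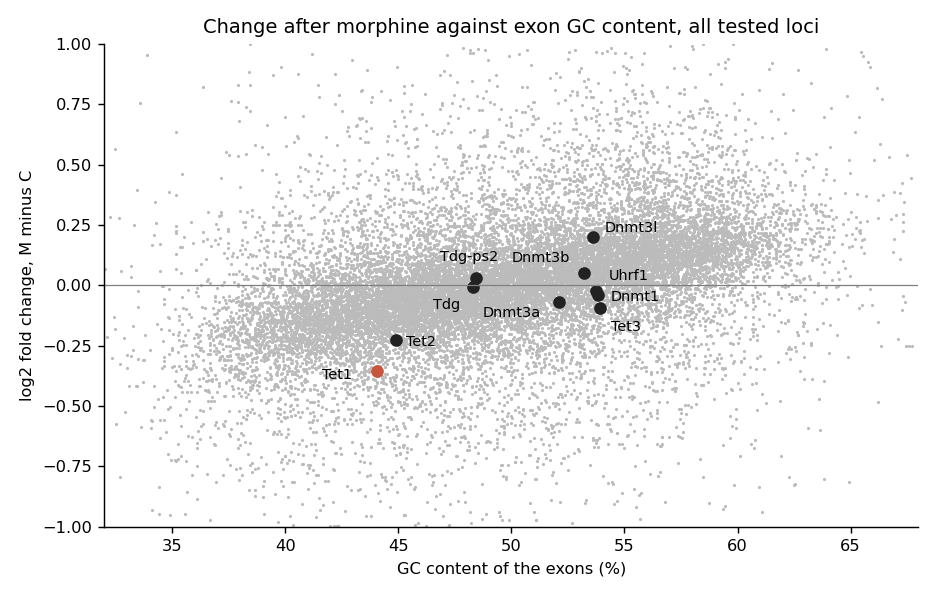
Log2 fold change of M minus C against the GC content of the exons for 20335 tested loci (grey) and the 10 member loci (labelled, Tet1 as the called one in red), with 297 loci outside the axes. The grey cloud rises with GC content, and Tet1 and Tet2 sit at its GC-poor side, below the median of their neighbours.

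**Figure D4:**
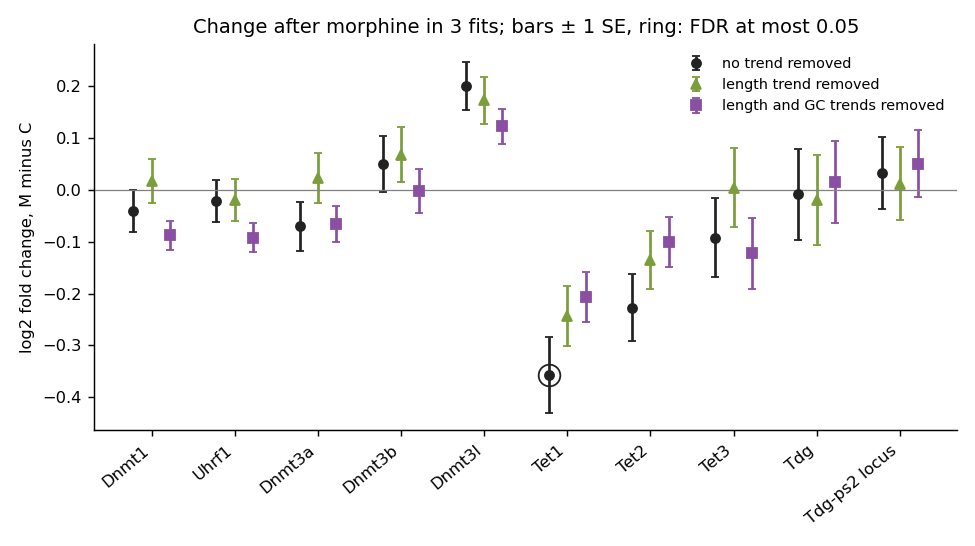
Log2 fold change of each member with ± 1 SE in the fit with no trend removed, with the length trend removed, and with length and GC trends removed, with a ring where the adjusted p is at most 0.05. Tet1 moved from -0.36 to -0.24 and -0.21 and kept the lowest value, and the only ring is at its estimate with no trend removed.

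Tdg, the glycosylase that removes oxidised cytosines, was represented by 2 loci that could not be cleanly separated. The first is the gene itself (chr10:82629838-82650494, plus strand). The second (chr10:42052558-42055453, minus strand) has a single exon and is annotated by RefSeq as the transcribed pseudogene Tdg-ps2. The 1191 coding bases of Tdg, from 9 exons, aligned to this copy over their whole length with 9 mismatches and no gap, an identity of 99.2%, with an uninterrupted identical run of 756 bases. A stretch of 120 coding bases is shown for both because it shows how few positions could assign a read, with the 2 differing bases in capitals. They are A855G and G877A, counted from 1 at the first coding base with the base of Tdg first. The Tdg stretch is at chr10:82647226-82647345 (plus strand) and that of the copy at chr10:42054430-42054549 (minus strand) on GRCm38, which has the same coordinates as mm10.
Tdg: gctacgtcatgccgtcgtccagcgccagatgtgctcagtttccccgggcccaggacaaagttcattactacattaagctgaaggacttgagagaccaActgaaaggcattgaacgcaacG
Tdg-ps2: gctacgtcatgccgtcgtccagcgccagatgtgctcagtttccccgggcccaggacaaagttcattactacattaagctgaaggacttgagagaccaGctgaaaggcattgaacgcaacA

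Over the exons of the Tdg locus, 66.0% of all 50-base windows and 46.3% of all 100-base windows occurred without a difference in the copy. The Tdg gene had 471 and 495 counts in C and 396 and 508 in M, and the Tdg-ps2 locus had more, at 737 and 786 in C and 719 and 742 in M. The copy thus held 59.4% to 64.5% of the counts assigned to the pair. How reads with several alignments were counted is not given in the sources used here, so both levels are uncertain. The log2 fold change was -0.01 ± 0.09 (SE, adjusted p = 0.973) for the gene and 0.03 ± 0.07 (SE, adjusted p = 0.840) for the copy, and the libraries overlapped at both loci. The 3′ end of the Tdg locus also overlaps Glt8d2 on the opposite strand, which had 12 to 24 counts per library.

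H3K27me3 was then described at the 5′ ends of the same loci from the peaks called in each ChIP-Seq library. The lists held 10305 and 13778 peaks in C and 8681 and 12282 in M, and they give positions and scores but no read counts, so presence and position were compared and enrichment was not. A peak within 5 kb of the 5′ end was found at 3 of the 10 loci in both C libraries (Dnmt3a, Dnmt3b and Tdg-ps2), at 2 in replicate 1 of M and at 1 in replicate 2 of M. Over the 18179 tested loci with a strand, 24.3% and 25.1% had such a peak in C and 23.6% and 25.5% in M. The members' counts are near these shares in C, and 10 loci are too few to set the M counts apart from them. With 2 libraries against 2, an exact permutation test cannot go below a p of 0.333, so none is given.

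The other 7 loci had no peak within 5 kb in any library, compared with 67.0% of the tested loci. The nearest peak was 71.8 to 72.2 kb from the 5′ end of Dnmt1, 56973 to 66973 bp from that of Uhrf1 and 49.0 to 49.8 kb from that of Dnmt3l. It was 69.8 to 129 kb away for Tet1, 208 to 247 kb for Tet2, 118 to 135 kb for Tet3 and 26.3 to 69.5 kb for Tdg. These 7 loci also held no peak anywhere between their ends in any library. Tet1, whose RNA call depended on the fit, was thus without a called peak at or in the gene in C and in M. Peak lists without read counts cannot show a change in enrichment, and a link between the mark and Tet1 RNA was not tested. No member had a peak in both M libraries and neither C library, a pattern found at 1.16% of tested loci.

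Dnmt3a had a peak in all 4 libraries, as had 17.0% of the tested loci. The peaks spanned chr12:3802274-3806420 and chr12:3801659-3806363 in C and chr12:3802188-3806399 and chr12:3802368-3806521 in M. All 4 lay upstream and stopped 103 and 160 bp before the 5′ end of the deposited locus in C and 124 and 2 bp before it in M. GENCODE vM21 has a Dnmt3a exon that starts upstream of that end, right after chr12:3806497, and the peak of replicate 2 of M ran past this start. They covered BC048080 (chr12:3803312-3806221, minus strand), a neighbouring locus with 2 and 3 counts in C and 6 and 0 in M, while Dnmt3a itself stayed at 163 to 174 CPM. Within its own library the peak scored above 78.3% and 88.5% of all peaks in C and above 24.4% and 69.4% in M. Scores depend on the depth of each library, so this order is a description.

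Dnmt3b had a peak in both C libraries and in replicate 1 of M, as had 2.83% of the tested loci with 1 M library of either number. The C peaks were chr2:153643864-153649430 and chr2:153643361-153649333, which ended 19 and 116 bp before the 5′ end. The M peak was chr2:153645160-153651345 and reached 1896 bp past the 5′ end, and the nearest peak in replicate 2 of M was 22.2 kb away. The C peaks scored above 59.8% and 71.0% of the peaks of their libraries and the M peak above 21.4%. Dnmt3b RNA was 72.0 to 72.8 CPM in M and 69.6 to 70.3 CPM in C. Replicate numbers do not link the RNA and the ChIP libraries.

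**Figure D5:**
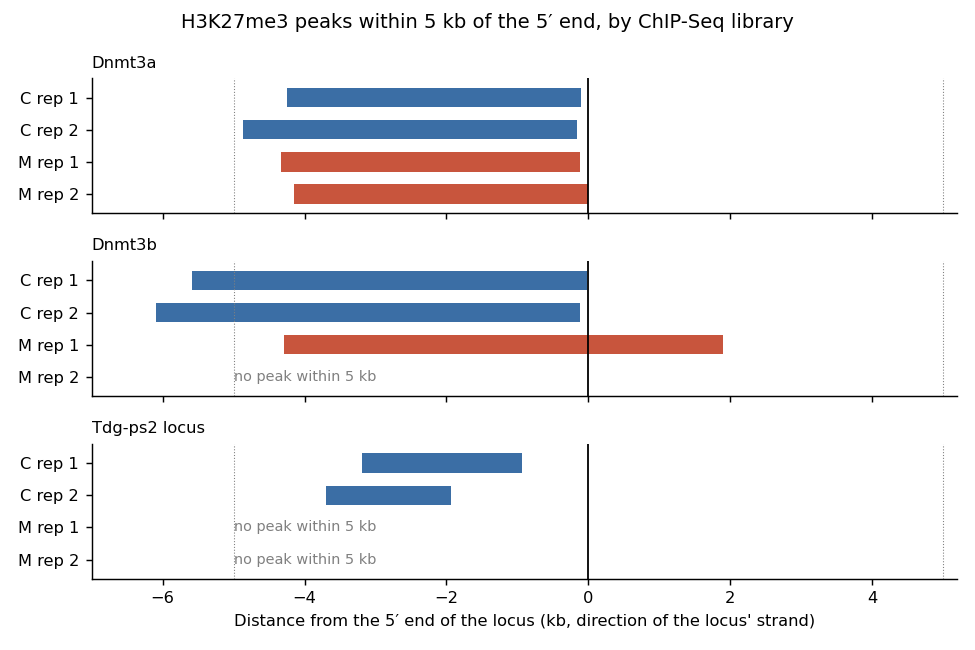
H3K27me3 peaks within 5 kb of the 5′ end of Dnmt3a, Dnmt3b and the Tdg-ps2 locus, drawn by library as distance in kb from the 5′ end in the direction of each locus' strand (C blue, M red, dotted lines at 5 kb). Dnmt3a had a peak upstream in all 4 libraries. Dnmt3b had a peak upstream in the 2 C libraries and across the 5′ end in replicate 1 of M. Tdg-ps2 had a peak upstream in the 2 C libraries.

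The DNA at these peak borders is shown because at least 2 of the peaks of each gene end inside it, as the 250 bases before the first annotated exon base near the 5′ end, or before the deposited 5′ end where that comes first, read from GRCm38 on the plus strand, with each CpG in capitals. The Dnmt3a window (chr12:3806248-3806497) holds 25 CpGs at 73.2% GC, and the peaks covered 173 and 116 of its bases in C and 152 and 250 in M, where the peak of replicate 2 ended past the window. The Dnmt3b window (chr2:153649199-153649448) holds 21 CpGs at 75.2% GC, and the peaks covered 232 and 135 of its bases in C and 250 and 0 in M. There the peak of replicate 1 ran past the window and replicate 2 had none.
Dnmt3a: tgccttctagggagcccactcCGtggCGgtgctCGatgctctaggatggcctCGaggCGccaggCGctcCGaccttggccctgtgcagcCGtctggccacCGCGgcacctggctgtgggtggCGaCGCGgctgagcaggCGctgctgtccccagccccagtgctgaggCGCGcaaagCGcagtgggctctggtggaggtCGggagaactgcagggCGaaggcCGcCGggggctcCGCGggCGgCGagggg
Dnmt3b: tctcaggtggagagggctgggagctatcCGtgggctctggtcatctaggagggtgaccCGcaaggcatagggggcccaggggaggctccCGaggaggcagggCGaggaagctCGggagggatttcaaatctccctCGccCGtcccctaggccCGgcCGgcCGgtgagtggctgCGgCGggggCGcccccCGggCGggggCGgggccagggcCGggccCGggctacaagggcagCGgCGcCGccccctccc

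The median over the 32851 RefSeq promoters (the 250 bases before each annotated start, GRCm38.p6) was 6 CpGs, and the 2 windows held more than 89.3% and 83.7% of them. The Dnmt3a window is not itself a RefSeq promoter, since the nearest RefSeq starts lie 457 and 637 bp inside the locus, where the promoters held 38 and 40 CpGs. CpG content alone did not separate the members with a peak from those without. The promoter of Tet2, with no peak within 208 kb, held 51 CpGs, more than 99.9% of all promoters, and that of Tdg held 19. The promoter at the 5′ end of Dnmt3l held 5 CpGs. Tet1 has its RefSeq start 21672 bp inside the assembled locus, where the promoter held 15 CpGs. The 9 genes matched 16 RefSeq promoters, of which 11 held the GC box GGGCGG on either strand, compared with 32.7% of all promoters. Several of these promoters belong to the same gene, and 2 of Dnmt3a overlap. All promoters together were not matched to them in CpG or GC content, so the difference is not a trait of the set. A match describes these letters and is not a binding site.

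The Tdg-ps2 locus had a peak in both C libraries (chr10:42056395-42058646 and chr10:42057392-42059152) and in neither M library, a pattern found at 1.07% of tested loci. The peaks lay 942 and 1939 bp upstream of the 5′ end, and the nearest in M were 33.8 and 17.7 kb away. They were among the weaker peaks, scoring above 29.6% and 29.4% of those in their libraries, and in replicate 2 of C the peak was no longer present when the lists were cut to equal numbers. RNA at the locus was 26.8 and 26.7 CPM in C and 28.4 and 26.4 CPM in M, so the libraries overlapped.

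The genes around the pathway were examined in lists of cofactors, regulators, readers and targets. For a gene with several loci the one with the most counts was used. Of 11 tested partners of the methyltransferases none passed the FDR in edgeR's quasi-likelihood test, 3 had an unadjusted p under 0.05 (20.5% of all tested loci had, which is the background for the lists that follow too), and the median log2 fold change was -0.027. DESeq2 called 1 of them, Hells, a chromatin remodeller needed for DNA methylation (adjusted p = 0.0182). Hells was at -0.22 ± 0.06 (adjusted p = 0.0838) in the quasi-likelihood test and at -0.04 ± 0.03 with length and GC trends removed, and its adjusted p ran from 0.000421 to 0.742 over the alternatives. Trdmt1, a transfer RNA methyltransferase, had the lowest value (-0.22 ± 0.11 SE, adjusted p = 0.301) and Daxx, a chaperone of histone H3.3, the highest (0.12 ± 0.05, adjusted p = 0.197). Of 9 tested regulators of the enzymes and of imprints none passed in edgeR's quasi-likelihood test and 4 had an unadjusted p under 0.05, with a median of 0.075, a lowest value of -0.24 ± 0.07 for Qser1 (adjusted p = 0.0862) and a highest of 0.54 ± 0.29 for Dppa3 (adjusted p = 0.325). DESeq2 called 2 of them lower, Qser1 (adjusted p = 0.0417) and Ogt, an O-GlcNAc transferase that binds TET proteins (adjusted p = 0.0255). Ogt was at -0.21 ± 0.06 (adjusted p = 0.0831) in the quasi-likelihood test. With length and GC trends removed Qser1 and Ogt were at -0.06 ± 0.05 and -0.07 ± 0.04, and over the alternatives their adjusted p ran from 0.00423 to 0.719 and from 0.00304 to 0.535. Hells and Ogt were named after their values were seen. Qser1 is known to protect regulatory regions from methylation together with TET1, and Dppa3, which protects maternal methylation in the zygote, had only 20 to 28 counts. None of the 8 methyl-CpG readers passed in the quasi-likelihood test, DESeq2 gave several no adjusted p and called none, and 2 had an unadjusted p under 0.05 (median -0.008), with Zbtb33 lowest at -0.28 ± 0.08 (adjusted p = 0.0876, from 0.0202 to 0.654 over the alternatives, and none given by DESeq2) and Zbtb4 highest at 0.17 ± 0.20 (adjusted p = 0.675).

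In the repair list, which acts after oxidation or deamination of cytosine, 1 of 17 genes passed, against 1.52% of all tested loci. An unadjusted p under 0.05 in the quasi-likelihood test was found for 2, and the list median was 0.030. Hmces, a shield of abasic sites first described as a binder of 5-hydroxymethylcytosine, rose from a mean of 80.6 to 99.3 CPM with a log2 fold change of 0.30 ± 0.05 (SE, adjusted p = 0.0263 in edgeR's quasi-likelihood test). With length and GC trends removed it was 0.20 ± 0.04 (adjusted p = 0.0775), without replicate 1 of M its adjusted p was 0.270, and over all alternatives it ran from 0.000144 to 0.270. Gadd45g had the lowest value in this list (-0.24 ± 0.19, adjusted p = 0.521), at under 3 CPM. None of 13 genes of the S-adenosylmethionine and one-carbon cycle passed in the quasi-likelihood test or DESeq2, 5 had an unadjusted p under 0.05 (median 0.008), and Mtr, methionine synthase, had the lowest value at -0.18 ± 0.05 (adjusted p = 0.0975, from 0.0374 to 0.549 over the alternatives). None of 7 suppliers of 2-oxoglutarate, the cosubstrate of the TET enzymes, passed in either test and 1 had an unadjusted p under 0.05 (median -0.009), from -0.06 ± 0.05 for Idh3a (adjusted p = 0.502) to 0.10 ± 0.04 for Idh1 (adjusted p = 0.214). With length and GC trends removed Idh1 was called, at 0.18 ± 0.03 (adjusted p = 0.0313), and over the alternatives its adjusted p ran from 0.00644 to 0.557.

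Germline genes known to be silenced by promoter methylation gave the median farthest from 0 among these 7 lists. Of 16 tested genes 1 passed the FDR, against 1.52% of all tested loci. In edgeR's quasi-likelihood test 7 had an unadjusted p under 0.05, against 20.5%. A negative log2 fold change was found in 13, against 49.7%, and the M libraries lay below C in 11, against 26.8% of all tested loci. The list median was -0.233. Dazl, an RNA-binding protein of germ cells, fell from 111 and 110 CPM in C to 85.5 and 96.3 CPM in M, with a log2 fold change of -0.29 ± 0.06 (SE, adjusted p = 0.0474 in edgeR's quasi-likelihood test). Stk31, a kinase-domain gene of germ cells, had the lowest value at -0.44 ± 0.12 (adjusted p = 0.0723, from 0.000186 to 0.484 over the alternatives) and Tex101 the highest at 0.01 ± 0.37 (adjusted p = 0.993). The median exon GC content of the list was 41.1%, and with length and GC trends removed its median log2 fold change was -0.092 and none of the 16 passed. In that fit Dazl was at -0.09 ± 0.04 (adjusted p = 0.420), and without replicate 1 of M its adjusted p was 0.416. The exact test, the likelihood ratio test, the replicate block and the fit without replicate 1 of C each called 3 genes of the list, namely Dazl, Stk31 and Sycp3, and 4 were called without the count filter, with Tex11 added. DESeq2 called 1, Dazl, and gave Stk31 and Sycp3 no adjusted p. Sycp3 and Tex11 were named after their values were seen. Over all alternatives the adjusted p of Dazl ran from 0.000145 to 0.458.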

How the data were processed

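RNA-Seq and H3K27me3 ChIP-Seq of mESCs were used in 2 control and 2 morphine libraries per assay, grouped by the sample labels. The authors trimmed reads with Trim Galore (version 0.6.2), aligned RNA with HISAT2 (version 2.1.0), assembled loci with StringTie (version 1.3.6) and deposited raw counts per locus from featureCounts (version 1.6.4), from a stranded kit. Whether strand was used in counting, and how multiply aligned reads were treated, is not given in the sources used here. For ChIP-Seq, the authors aligned to mm10 with Bowtie2 (version 2.3.5.1) and used MACS on each library separately (p-value limit of 1e-05). Each peak's deposited score served only for ranking within its library. For the antibody, different suppliers are given in the labels and in the paper.

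Counts were filtered with filterByExpr, scaled by TMM and tested over all 20350 loci by the quasi-likelihood method of edgeR (version 4.0.16 under R 4.3.3) at an FDR of 0.05 with no covariate. CPM use TMM library sizes. Totals of 25081266 to 29531096 counts set the precision, and the depth of the ChIP-Seq lists is unknown. On simulated counts for this comparison, 200 of 200 loci changed by a log2 value of 1 were recovered with 11 false calls of 19947 loci. The simulation held no GC trend and its changes were larger than those of the members. It therefore does not show how changes of the members' size would be recovered. GC content was computed from the GRCm38 sequence of the deposited exons, and the Tdg alignment used Biopython 1.88. Alternatives covered the test (DESeq2 1.42.0, and the exact or likelihood ratio test of edgeR), scaling, count filter, replicate block, removal of length and GC trends (natural splines, 5 degrees of freedom), thinning, an FDR of 0.01, leaving out each library, and peak window, score, number and start site. Members, lists and tests were chosen with earlier results of these data known. The genes named are the members, genes of the lists past the FDR and the highest and lowest of each list, and neighbours at the members' peaks or overlapping a member; the highest of 2 lists are not reported here.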

Additional observations from a re-analysis of the deposited data

How the results depend on the processing

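The number of loci called moved from 309 to 790 (exact test), 840 (likelihood ratio test), 652 (DESeq2), 515 (total counts, with 281 higher and 234 lower), 1657 (no count filter), 92 (length and GC trends removed), 162 (thinned) and 24 (FDR of 0.01), and from 13 to 1619 when each library was left out. Members called moved from 1 to 2 by the exact test, the likelihood ratio test, DESeq2 and total counts, to 3 without a count filter, to 0 with the length trend, both trends, thinning or an FDR of 0.01, and from 0 to 3 when each library was left out. The members' median log2 fold change was -0.011 with total counts, 0.0083 with the length trend removed, -0.0766 with both trends removed, and -0.0489 to -0.0267 when each library was left out. The causes were not tested.

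Same-numbered libraries did not deviate together (Pearson's r of 0.0145 across loci), so the numbers were not taken as pairs. With a replicate block 1128 loci and 3 members were called (Tet1 at 1.85e-06, Tet2 at 0.0184, Dnmt3l at 0.0351), and with the block plus both trends removed 333 loci and 1 member (Tet1 at 0.0151), with a members' median of -0.0766. No paired analysis was made for the peaks, whose presence was described without a test.

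Small uncalled changes turned sign. With the length trend removed Dnmt1 was 0.017, Dnmt3a 0.023 and Tet3 0.0045. With both trends removed Dnmt3b was -0.0019 and Tdg 0.016, and with the block added -0.0020 and 0.015. Tdg was also 0.011 with total counts, 0.041 after thinning, 0.0013 without replicate 1 of C and 0.088 without replicate 1 of M, where Tdg-ps2 was -0.0220. With each library left out Tdg ran from -0.116 to 0.088. Tet1, Tet2 and Dnmt3l kept their direction in every alternative. Tet1 lost its call with DESeq2, either trend fit, thinning (adjusted p = 0.0532), an FDR of 0.01 and without replicate 1 of M.

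Loci with a peak in both libraries numbered 3 in C and 1 in M. They numbered 1 and 0 with a score of at least 100, and 1 to 2 in M when each library was left out. The 2 libraries per condition, and for the peaks the unknown depth, limit every comparison here, and DESeq2 gave no adjusted p for Tet3 and both Tdg loci.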
